A study of Mus musculus with 6 samples.

Results

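The peroxisome proliferator-activated receptors (Ppara, Ppard, and Pparg), the retinoid X receptors (Rxra, Rxrb, and Rxrg), and the coactivators PGC-1α and PGC-1β (Ppargc1a and Ppargc1b) were examined in the kidneys of WT and Selenbp1-KO mice. Every probe that is not a control and carries the symbol of 1 of these 8 genes was used. This gave 15 of the 56605 probes and 8 of the 37325 genes or other transcripts that the probes name. The study asked how deletion of Selenbp1, which encodes a selenium-binding protein, changes kidney mRNAs. RNA of the left kidney of 3 WT and 3 Selenbp1-KO male mice, labeled as strain C57BL/6J, 8 weeks of age and 20 h into a fast, was marked with the dye Cy3 and hybridized to 6 Agilent oligonucleotide arrays, 1 per mouse. The replicates are numbered 2, 3, and 4 in the WT and 1, 2, and 3 in the Selenbp1-KO group. The WT mice were bought from a supplier and the Selenbp1-KO line had been made earlier, and whether the mice were littermates is not given in the sources used here. The whole kidney was used, so fewer cells of a type and less RNA per cell cannot be told apart.

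PPARs are nuclear receptors that fatty acids and their derivatives activate. Each binds DNA as a pair with an RXR, and the pair recruits coactivators such as PGC-1α and PGC-1β to genes of lipid handling. Ppara drives fatty acid oxidation in tissues that burn fat, among them the proximal tubule of the kidney, and does so most during fasting. Ppard is expressed in most tissues, and Pparg is the master regulator of fat cells. Rxra, Rxrb, and Rxrg also pair with receptors for retinoic acid, thyroid hormone, vitamin D, oxysterols, and bile acids. PGC-1α and PGC-1β switch on mitochondrial genes together with the estrogen-related receptors and the nuclear respiratory factors.

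Selenbp1, the targeted gene, had a log2 signal of 7.07, 7.02, and 7.02 in WT replicates 2, 3, and 4 and of 4.13, 3.98, and 4.10 in Selenbp1-KO replicates 1, 2, and 3, so all 6 labels matched it. The log2 signal is the processed intensity relative to the 75th percentile of the same array, which ranged from 477 to 751 intensity units. Between 51.8% and 55.5% of an array's spots were well above background, and none was saturated. WT replicates 2 and 3 lie on side 1 of the single slide, and WT replicate 4 lies with the 3 Selenbp1-KO arrays on side 2. The difference of all probes tested, KO minus WT, had a median of 0.11 under this scaling and of 0.00 after quantile normalization. At an unadjusted p under 0.05 by limma, 847 of 56097 probes were lower and 3632 higher, after quantile normalization 2170 were lower and 2527 higher, and after scaling to the median 935 were lower and 13681 higher. After normexp background correction 291 were lower and 5970 higher.

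The members are read by probes of 60 bases, whose sequences show which stretch of each transcript a value stands for. For the genes read by more than 1 probe, the probes are numbered from the brightest. The first 30 bases are shown for the probes of the 3 genes on which most of the results turn, in mm9 coordinates and on the transcript strand, with no base in capitals. Both Ppara probes lie on chr15, probe 1 at chr15:85632110-85632169 and probe 2 at chr15:85637193-85637252, which puts their starts 5083 bases apart. Rxra probe 1 lies at chr2:27618345-27618404 and probe 2 at chr2:27615316-27615375. Ppargc1a probe 1 lies at chr5:51848928-51848987 and probe 2 at chr5:51849419-51849478, both on the minus strand. An annotation of this build was not used here, so the exon or untranslated part that each probe reads is not given.
Ppara probe 1: ctttgaaaacctacaagtcaaggtgtggcc
Ppara probe 2: cctgtaagctgatgaatgtaaagagttaat
Rxra probe 1: tactcactgggacattgtggtgcagacgcc
Rxra probe 2: gtccttatgggcccaaaagatgcatcacca
Ppargc1a probe 1: ccccttcaaatggcagcatttccatgaaga
Ppargc1a probe 2: tatgactctctggattttgatagtttactg

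Of the 3 Rxrb probes, 2 have coordinates that span more genome than their own length, and so lie across a splice junction of the transcript. Probe 2 covers 175 bases at chr17:34173690-34173864 and probe 3 covers 262 bases at chr17:34173894-34174155, so neither can be read in full from genomic DNA. Their whole sequences are printed for that reason.
Rxrb probe 2: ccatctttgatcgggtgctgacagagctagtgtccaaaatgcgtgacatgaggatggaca
Rxrb probe 3: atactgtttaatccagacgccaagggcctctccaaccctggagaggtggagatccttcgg

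No probe of the 8 genes passed the unadjusted threshold of 0.05 in limma, here called the test, under 75th percentile scaling. The paper differs from this. It reports Ppara and Rxra as lower in the Selenbp1-KO kidneys, both on the arrays at this threshold and by real-time RT-PCR. With the authors' processed values, probe 1 of each of these 2 genes also passed here. The count of 0 of 15 stands beside 7.98% of all probes tested, with 1.51% called lower and 6.47% called higher in the Selenbp1-KO kidneys. After Benjamini–Hochberg adjustment 0.00357% of all probes and none of the 15 passed. After quantile normalization 3 of the 15 passed the test, all lower, beside 8.37% of all probes and 3.87% called lower. The count was also 3 with the authors' processed values, all lower, beside 4687 of all 56097 probes, 2105 of them lower. After normexp background correction it was 3, with 1 lower and 2 higher, beside 6261 of all probes, 291 of them lower. With the trend and robust options of limma it was 4, all lower, beside 7536 of all probes, 1175 of them lower. None of the 15 had an adjusted p under 0.05 in these fits. Of the 15 probes, 14 were well above background on all 6 arrays. Of these 14, 8 were lower and 6 higher in the Selenbp1-KO group, with a median of −0.11, whereas 33.8% of all probes tested, dim ones included, were lower. The 2 sets are not matched in brightness. In a fit of only the probes well above background on all arrays of 1 or both genotypes, 1003 were called lower and 1838 higher. Over all probes tested these counts were 847 and 3632. After quantile normalization the same count of 8 of 14 was lower, with a median of −0.12, and 49.8% of all probes were, so the distance of the members from all probes depended on the scaling. All 8 lower probes read Ppara, Rxra, Ppargc1a, or Ppargc1b.

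The groups did not overlap in 3 of the 14 probes, namely Ppara probe 1, Rxra probe 1, and Ppargc1b probe 2, and each was lower in every Selenbp1-KO kidney than in every WT kidney. Among all 28515 probes well above background on all 3 arrays of 1 or both genotypes, the groups did not overlap in 17.6%, and 6.81% did not overlap and were lower.

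**Figure D1:**
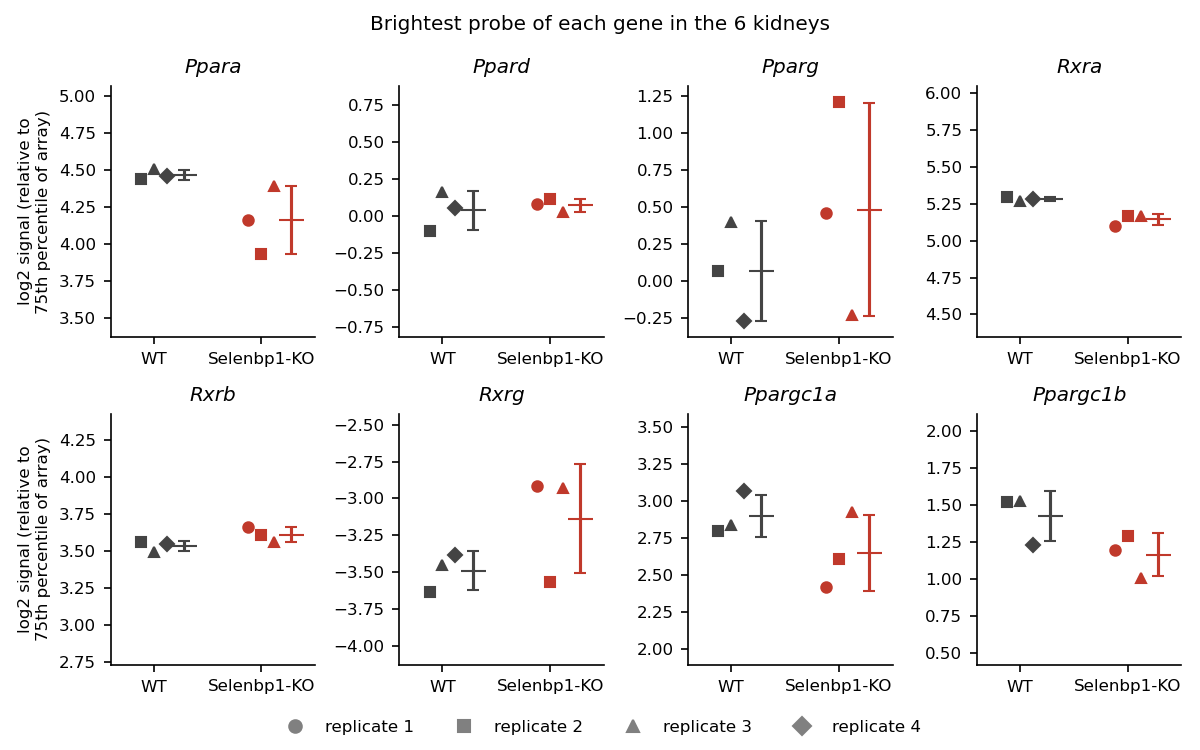
Log2 signal, relative to the 75th percentile of the array, of the brightest probe of each of the 8 genes on the 3 WT (gray) and 3 Selenbp1-KO (red) arrays. Symbols mark the replicate number, the bar beside the points is the mean ± SD (n = 3), and every panel spans the same log2 range. Ppara and Rxra are the panels in which the groups do not overlap, and Pparg spreads most within the groups.

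Ppara, the receptor of fatty acid oxidation, had a log2 signal of 4.44, 4.51, and 4.46 in WT replicates 2, 3, and 4 and of 4.17, 3.93, and 4.39 in Selenbp1-KO replicates 1, 2, and 3 at probe 1. All 3 Selenbp1-KO kidneys were below the lowest WT kidney, with replicate 3 only slightly below it. The WT mean was 4.47 ± 0.03 and the Selenbp1-KO mean 4.16 ± 0.23 (SD, n = 3 each). The difference was −0.31 (standard error 0.14, 95% interval −0.65 to 0.04, adjusted p = 0.279 by limma), a ratio of 0.808 of KO to WT, and did not pass the test. Relative to the median of all probes it was −0.42. After quantile normalization it was −0.35 and passed the test (standard error 0.12, adjusted p = 0.538 by limma). On side 2 of the slide alone, against WT replicate 4, it was −0.30 and did not pass.

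At Ppara probe 2, the log2 signal was 2.77, 2.87, and 2.86 in the WT and 2.62, 2.49, and 2.82 in the Selenbp1-KO kidneys. Replicates 1 and 2 of the Selenbp1-KO group were below all WT kidneys, and replicate 3 lay within their range. This probe differed by −0.19 (standard error 0.12, adjusted p = 0.441 by limma). Both probes ranked the Selenbp1-KO kidneys in the same order, with replicate 2 lowest and replicate 3 highest. The result at probe 1 depended on these kidneys. Without Selenbp1-KO replicate 2 the difference was −0.19 and did not pass the test, and without Selenbp1-KO replicate 3 it was −0.42 and passed (adjusted p = 0.291 by limma).

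Ppard, the receptor found in most tissues, was read by 1 probe at −0.10, 0.16, and 0.05 in the WT and 0.08, 0.11, and 0.02 in the Selenbp1-KO kidneys. The Selenbp1-KO values lay inside the WT range. The difference was 0.035 (standard error 0.11, 95% interval −0.24 to 0.31, adjusted p = 0.904 by limma), which corresponds to a ratio between 0.849 and 1.24. Without WT replicate 2 it turned to −0.035.

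Pparg, the fat cell receptor, was the most variable of the 8 genes. Probe 1 gave 0.07, 0.40, and −0.27 in the WT and 0.46, 1.21, and −0.23 in the Selenbp1-KO kidneys. Selenbp1-KO replicate 2 stood alone above the other 5 kidneys, and Selenbp1-KO replicate 3 was next to the lowest WT kidney. The difference was 0.41 (standard error 0.38, 95% interval −0.52 to 1.35, adjusted p = 0.619 by limma), and without Selenbp1-KO replicate 2 it was 0.049. Pparg probe 2, designed on another transcript (GQ868648), was not well above background on any array, so no fold is given for it.

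Some of the white fat markers followed Pparg across the arrays. Adipoq, which encodes the fat cell hormone adiponectin, and Fabp4, a fatty acid-binding protein of fat cells, placed all 6 kidneys in the same order as Pparg, with Selenbp1-KO replicate 2 highest and WT replicate 4 lowest. Cfd and Retn, which encode adipsin and resistin, shared its highest and lowest kidney and held its rank on 4 of the 6 arrays each. Plin1, the lipid droplet coat protein of fat cells, held it on 2, with Selenbp1-KO replicate 3 lowest, and Lep, the hormone leptin, on 1, with Selenbp1-KO replicate 1 highest and WT replicate 2 lowest. The log2 signal of Adipoq was 0.55, 1.05, and −0.62 in the WT and 1.66, 2.70, and 0.19 in the Selenbp1-KO kidneys. The summed linear level of the 6 white fat markers ranged from 24.5 to 65.0 times the array's 75th percentile in the WT and from 35.9 to 155 in the Selenbp1-KO kidneys, with all 6 markers higher in the mean and none under an unadjusted p of 0.05. Of the 6 brown fat markers, Ucp1, Cidea, and Cox8b were well above background on all arrays and were highest in Selenbp1-KO replicate 2 and lowest in Selenbp1-KO replicate 3. The summed level of the brown fat list ranged from 4.88 to 11.3 in the WT and from 2.08 to 27.5 in the Selenbp1-KO kidneys. The part of fat cells in the difference of Pparg was not tested.

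**Figure D2:**
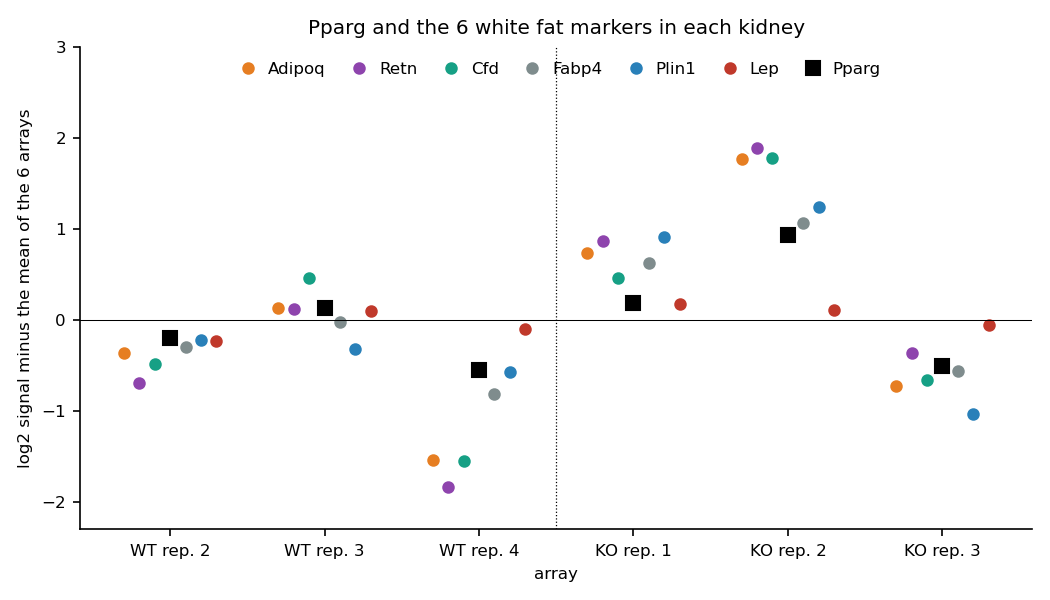
Log2 signal of Pparg (black squares) and of the 6 white fat markers (colored circles) on each array, each gene centered on its own mean of the 6 arrays. The dotted line parts the WT from the Selenbp1-KO arrays. Pparg, Adipoq, Retn, Cfd, and Fabp4 are highest in Selenbp1-KO replicate 2 and lowest in WT replicate 4, whereas Plin1 is lowest in Selenbp1-KO replicate 3 and Lep varies least.

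Rxra, the main partner of Ppara in the DNA-bound pair, had the tightest groups of all members. Probe 1 gave 5.29, 5.27, and 5.28 in the WT and 5.10, 5.16, and 5.17 in the Selenbp1-KO kidneys. Every Selenbp1-KO kidney was below every WT kidney, and the WT kidneys were almost level. The means were 5.28 ± 0.01 and 5.14 ± 0.04 (SD, n = 3 each). The difference was −0.14 (standard error 0.09, 95% interval −0.36 to 0.08, adjusted p = 0.449 by limma), a ratio of 0.908, and did not pass the test. On side 2 of the slide alone it was also −0.14, and relative to the median of all probes −0.25. After quantile normalization it was −0.23 and passed the test (standard error 0.042, adjusted p = 0.389 by limma).

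Rxra probe 2, which was much dimmer against background, gave −1.45, −1.34, and −1.84 in the WT and −1.68, −1.55, and −1.63 in the Selenbp1-KO kidneys. The Selenbp1-KO values lay inside the WT range, and WT replicate 4 was the lowest of all. The difference was −0.074 (standard error 0.15, adjusted p = 0.849 by limma), and it turned to 0.22 on side 2 of the slide alone, so the probes of Rxra did not give the same direction there.

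Rxrb, expressed in most tissues, gave 3.56, 3.50, and 3.55 in the WT and 3.66, 3.61, and 3.56 in the Selenbp1-KO kidneys at probe 1. Selenbp1-KO replicate 3 lay at the level of the highest WT kidney and the others were above it. The difference was 0.076 (standard error 0.094, 95% interval −0.15 to 0.31, adjusted p = 0.723 by limma). The junction probes 2 and 3, printed above, differed by 0.046 and 0.098, did not pass the test, and their groups overlapped.

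Rxrg, which is best known from muscle and nervous tissue, was the dimmest gene relative to its array, at −3.63, −3.45, and −3.38 in the WT and −2.92, −3.57, and −2.93 in the Selenbp1-KO kidneys. It was nevertheless well above background on all 6 arrays. Selenbp1-KO replicates 1 and 3 were above all WT kidneys, and replicate 2 was within their range. The difference was 0.35 (standard error 0.20, adjusted p = 0.382 by limma) and did not pass the test. Without Selenbp1-KO replicate 2 it was 0.57 and passed (adjusted p = 0.523 by limma). The summed level of the 6 skeletal muscle markers ranged from 2.09 to 2.30 in the WT and from 2.62 to 2.88 in the Selenbp1-KO kidneys. All 6 were higher in the mean, with Pvalb, a calcium-binding protein that the distal convoluted tubule also expresses, as the only one under an unadjusted p of 0.05, and Ckm not well above background on any array. Their part in the difference of Rxrg was not tested.

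Ppargc1a, which encodes the fasting-inducible coactivator PGC-1α, gave 2.80, 2.84, and 3.06 in the WT and 2.42, 2.61, and 2.93 in the Selenbp1-KO kidneys at probe 1. Selenbp1-KO replicates 1 and 2 were below all WT kidneys, whereas replicate 3 was above WT replicates 2 and 3. The difference was −0.25 (standard error 0.16, 95% interval −0.65 to 0.15, adjusted p = 0.450 by limma). On side 2 of the slide alone it was −0.41, more than 1.5 times as large, and did not pass the test. Probe 2 gave 0.76, 0.91, and 0.88 in the WT and 0.65, 0.61, and 0.81 in the Selenbp1-KO kidneys, again with replicate 3 as the Selenbp1-KO kidney within the WT range. It differed by −0.16 (standard error 0.11, adjusted p = 0.484 by limma).

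Ppargc1b, which encodes PGC-1β, gave 1.52, 1.53, and 1.23 in the WT and 1.19, 1.29, and 1.01 in the Selenbp1-KO kidneys at probe 1. WT replicate 4 was level with the Selenbp1-KO kidneys, and WT replicates 2 and 3 were above all of them. The difference was −0.26 (standard error 0.14, adjusted p = 0.325 by limma), but −0.065 on side 2 of the slide alone. At probe 2, designed on the predicted transcript XM_006525698, the log2 signal was −0.42, −0.27, and −0.42 in the WT and −0.47, −0.67, and −0.74 in the Selenbp1-KO kidneys. Here the groups did not overlap, though Selenbp1-KO replicate 1 was close to WT replicates 2 and 4. Probe 2 differed by −0.26 (standard error 0.12, adjusted p = 0.279 by limma) and by −0.21 on side 2 alone. After quantile normalization it again differed by −0.26 and passed the test (adjusted p = 0.583 by limma).

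**Figure D3:**
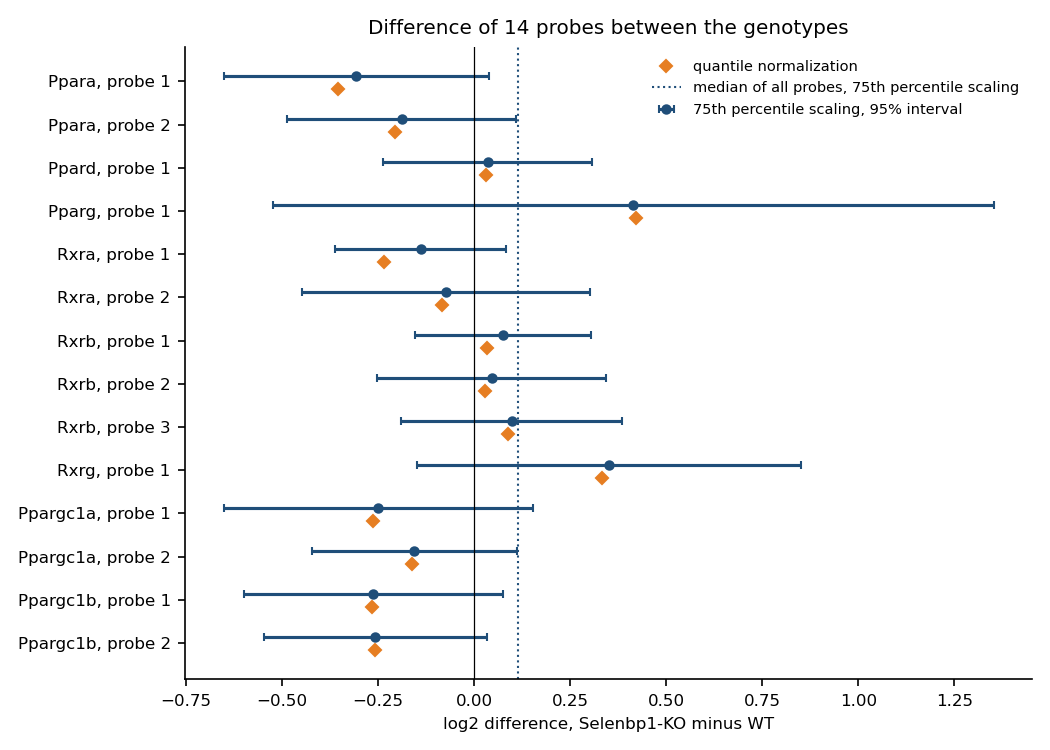
Log2 difference, Selenbp1-KO minus WT, of the 14 member probes that were well above background on all 6 arrays. Blue circles are the values under 75th percentile scaling with their 95% intervals from limma, orange diamonds those after quantile normalization, and the dotted line the median of all probes tested. All 14 blue intervals include 0, and the 8 probes of Ppara, Rxra, Ppargc1a, and Ppargc1b lie left of it.

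Because each array carries probes for the paralogs side by side, the log2 ratio of the brightest probes of 2 members was compared within each kidney, which removes the scaling of the array apart from its dependence on brightness. The 3 ratios were chosen after the values were seen, and with 3 arrays against 3 an exact permutation test cannot go below p = 0.10. Rxra over Rxrb was 1.73, 1.77, and 1.73 in the WT and 1.44, 1.55, and 1.60 in the Selenbp1-KO kidneys. The groups did not overlap, and the ratio was lower by a mean difference of −0.21 (two-sided exact permutation p = 0.10, adjusted p = 0.30 over the 3 ratios). Ppara over Ppard differed by −0.34 (exact permutation p = 0.20, adjusted p = 0.30), with Selenbp1-KO replicate 3 inside the WT range. Ppargc1a over Ppargc1b differed by 0.012 (exact permutation p = 0.90, adjusted p = 0.90).

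The differences of Ppara, Rxra, Ppargc1a, and Ppargc1b, by the brightest probe or with all probes averaged, kept their sign in all 19 alternative analyses. These are not independent. The other filters, the flagged spots kept, and the trend and robust options leave the difference itself as it was, and all analyses share the same arrays. Ppara ranged from −0.42 to −0.19 and passed the unadjusted threshold in 6 of the 19. Rxra ranged from −0.23 to −0.11 and passed in 3, each of them on quantile-normalized values. The authors' processed values are among these 3, since their percentiles differed between arrays by at most 7.69e-05 log2 units and their differences correlated at 0.9998 over probes with those after quantile normalization. Ppargc1a ranged from −0.41 to −0.050 and passed in none, and Ppargc1b ranged from −0.37 to −0.053 and passed in 2. The lowest adjusted p by limma over these alternatives was 0.188 for Ppara, 0.359 for Rxra, 0.291 for Ppargc1a, and 0.116 for Ppargc1b.

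**Figure D4:**
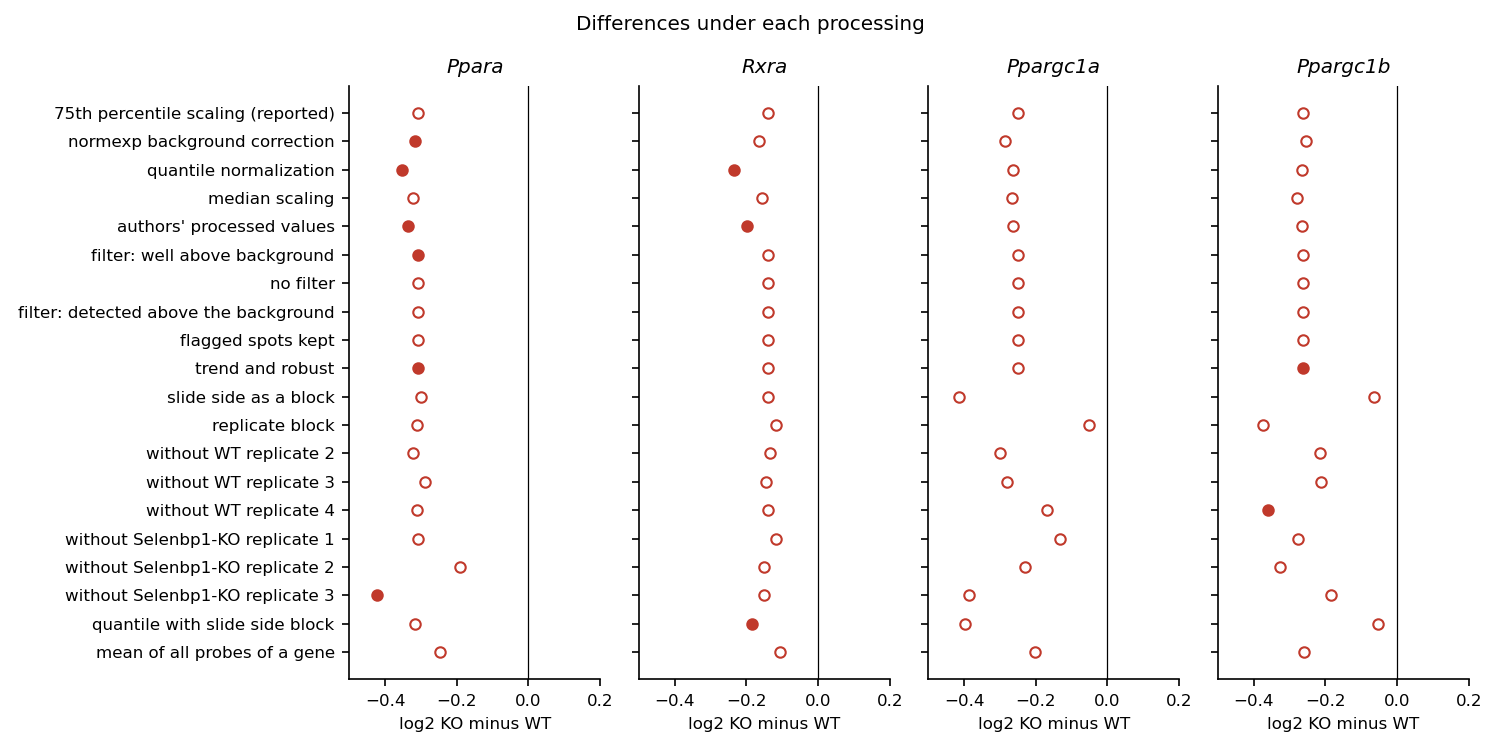
Log2 difference, Selenbp1-KO minus WT, of the brightest probe of Ppara, Rxra, Ppargc1a, and Ppargc1b in the reported analysis and in each alternative, 1 row per analysis. Filled circles have an unadjusted p under 0.05 by limma and open circles do not. All points lie left of 0, and the filled points are 6 for Ppara, 3 for Rxra, 0 for Ppargc1a, and 2 for Ppargc1b.

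The PPARs and RXRs bind the hexamer AGGTCA in DNA, and a direct repeat of it spaced by 1 base is the classical element of a PPAR and RXR pair. The windows from 250 bases before to 50 bases after the annotated starts of the members in RefSeq (GRCm38.p6) were searched for both on either strand. AGGTCA was found in 4 of the 12 member windows and in 16.3% of all 32851 windows, and the repeat AGGTCANAGGTCA, each match of which also holds the hexamer, in 0 of 12 and in 0.0396%. The Rxra window at chr2:27709042-27709341 holds the hexamer at 2 places, 87 and 48 bases before the start, the first of them on the opposite strand. This stretch and the 26 bases of the first Pparg window are shown with the hexamer in capitals, as the receptors' recognition letters in the genes of the receptors themselves.
Rxra promoter: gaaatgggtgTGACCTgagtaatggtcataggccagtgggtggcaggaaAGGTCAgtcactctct
Pparg promoter: ccgccgcctcAGGTCAgagtcgcccc

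To set the members in their pathway, 10 lists of partners, regulators, and targets were examined through the brightest probe of each gene. Of 138 listed genes, 136 were found among the probes tested, and 7 of these passed the unadjusted threshold, 3 lower and 4 higher. This is 5.15%, beside 8.00% of all genes tested, of which 1.13% were called lower and 6.87% higher. After quantile normalization 25 passed, 20 lower and 5 higher, beside 9.10% of all genes, 3.86% lower and 5.24% higher. None had an adjusted p under 0.05 in either fit. Of the listed genes, 133 were well above background on all arrays of 1 or both genotypes. Of these 133, 76 were lower and 57 higher, with a median of −0.040. Over all genes tested, dim ones included, the median was 0.13 and 31.6% were lower. These sets are not matched in brightness. In the fit of only the probes that passed this filter, 1003 were called lower and 1838 higher, beside 847 and 3632 over all probes tested. The part of the filter in the distance of the lists from all genes was not tested.

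Among the 13 receptors that pair with RXR, Nr1i3, the xenobiotic receptor CAR, rose by 0.58 (standard error 0.22, adjusted p = 0.279 by limma), although its signal was low on all arrays and its groups overlapped. With the slide side as a block it differed by 0.20 and no longer passed. Nr1h3, the oxysterol receptor LXRα, was higher in every Selenbp1-KO kidney than in any WT kidney, with a difference of 0.26 that did not pass the test (standard error 0.11). Thrb, a thyroid hormone receptor, differed by −0.24 and did not pass. The list had 8 members lower and 5 higher.

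None of the 16 partner factors of PGC-1 passed the test, and 12 were lower and 4 higher, with 3 called after quantile normalization. Esrra, the estrogen-related receptor that carries much of the PGC-1 program, differed by 0.16 (standard error 0.10). Mef2d and Foxo1, a muscle-enhancer factor and a fasting-responsive forkhead factor, differed by −0.17 and −0.16. Of the 9 well-measured regulators upstream of PGC-1α, none passed and 8 were lower, among them Prkaa2 and Prkaa1, the catalytic subunits of the energy sensor AMPK, at −0.15 and −0.13, and Crtc2, a CREB coactivator, at −0.15. After quantile normalization Prkaa2 and Prkaa1 passed, at −0.19 and −0.13. Camk4 was not well above background on any array, so its value, the remaining call of the 4 higher, is not given.

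In the list of 15 coactivators and corepressors, 11 were lower and 4 higher. Ep300, the histone acetyltransferase p300 that PPARs and PGC-1α recruit, was at −0.86, −0.71, and −0.85 in the WT and −1.04, −1.10, and −1.30 in the Selenbp1-KO kidneys. It fell by 0.34 on the log2 scale (standard error 0.12, adjusted p = 0.279 by limma), without overlap of the groups. Smarcd3, a subunit of the SWI/SNF chromatin remodeler, rose by 0.25 (standard error 0.099, adjusted p = 0.279 by limma), from a range of −1.01 to −0.87 in the WT to −0.72 to −0.64. With the slide side as a block, WT replicate 4 is the only WT array set against the Selenbp1-KO arrays. Ep300 then differed by −0.30 and Smarcd3 by 0.20, and the list had a median of −0.19. Ncoa6, another receptor coactivator, differed by −0.22 and did not pass the test. After quantile normalization Ncoa6 differed by −0.23 and passed, and the list had 4 genes called lower and 1 higher.

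The targets of Ppara were examined as a peroxisomal list, a mitochondrial and ketogenic list, and the Cyp4a list. Of the 13 well-measured peroxisomal targets, none passed the test, with 8 lower and 5 higher. After quantile normalization 9 of all 14 were lower and 1 of them passed. Ehhadh, an enzyme of peroxisomal fatty acid oxidation, differed by −0.22 (standard error 0.19), and Acox3, which acts on branched-chain fatty acids, by −0.096 (standard error 0.098). The Acox3 value is that of the brightest of 4 probes tested, and the others are not given here. The paper reports lower Acox3 in the Selenbp1-KO kidneys, both on the arrays and by real-time RT-PCR. Acaa1b and Acaa1a, the peroxisomal thiolases, differed by −0.14 and −0.092, and after quantile normalization Acaa1a differed by −0.20 and passed. These paralogs are similar, so a probe of one can also read the other. Of the 17 mitochondrial and ketogenic targets, none passed and 11 were lower, with a median of −0.042. After quantile normalization 14 were lower, with a median of −0.13 beside 0.0037 over all genes. Then 4 were called lower and 1 higher, beside 3.86% and 5.24% of all genes, so the count of calls depended on the scaling. The proximal tubule markers given below were also lower after quantile normalization. Cpt1a, the enzyme that commits fatty acids to mitochondrial oxidation, differed by −0.19 (standard error 0.10), and after quantile normalization by −0.28, which passed the test. Acot2, a mitochondrial thioesterase, differed by −0.21 (standard error 0.12), and by −0.23 after quantile normalization. Acaa2, the mitochondrial thiolase, differed by −0.12 (standard error 0.10), and after quantile normalization by −0.28, which passed. Pdk4, a fasting-induced kinase that spares glucose, differed by 0.085 (standard error 0.16).

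The Cyp4a list, the omega-hydroxylases of fatty acids and arachidonic acid, held 2 of the 3 listed genes that were called lower. Cyp4a12b was at 2.59, 2.22, and 2.29 in the WT and 1.77, 1.85, and 1.79 in the Selenbp1-KO kidneys. It fell by 0.57 on the log2 scale (standard error 0.13, adjusted p = 0.279 by limma). Cyp4a12a fell by 0.54 (standard error 0.13, adjusted p = 0.279 by limma), from a range of 1.74 to 2.08 to a range of 1.23 to 1.38. After quantile normalization Cyp4a12b differed by −0.58 and Cyp4a12a by −0.55, and both passed the test. With the slide side as a block, where WT replicate 4 is the only WT array compared, they differed by −0.49 and −0.46. The paper reports both genes as lower in the Selenbp1-KO kidneys, on the arrays and by real-time RT-PCR. The groups did not overlap in either gene, but these paralogs are near-identical and a probe of one can also read the other. The other 3 measured members, Cyp4a10, Cyp4a14, and Cyp4a31, differed by −0.13, −0.14, and 0.14 and did not pass the test.

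Of the 17 well-measured other lipid targets of the PPARs, none passed, and 9 were lower and 8 higher. Angptl4, an inhibitor of lipoprotein lipase that responds to all PPARs, differed by −0.0097 (standard error 0.12), and Plin2, a lipid droplet coat protein, by −0.19 (standard error 0.13). Pltp, a phospholipid transfer protein, differed by 0.62 (standard error 0.27), and Creb3l3, a liver and gut factor of lipid metabolism, by −0.44 (standard error 0.23).

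Of the 12 targets of Pparg in fat cells, 11 were higher and 1 lower, with a median of 0.15 beside 0.13 over all genes, and none passed the test. After quantile normalization 3 were lower, and the median was 0.14 beside 0.0037 over all genes. On side 2 of the slide alone, where WT replicate 4 is the only WT array, the list had a median of 0.71 and Retn differed by 2.64. WT replicate 4 had the lowest Retn signal of all arrays, at −1.66, so these values rest on that single WT kidney. Retn, the fat cell hormone resistin, differed by 1.60 (standard error 0.71) and Fabp4 by 0.75 (standard error 0.45), with the spread between kidneys described above for Pparg. The 16 measured mitochondrial targets of PGC-1 had 12 higher and 4 lower, with a median of 0.099 under this scaling and of −0.021 after quantile normalization, so the direction of the list depended on the scaling. Cox7a1, the heart and muscle form of a cytochrome c oxidase subunit, rose by 0.37 (standard error 0.12, adjusted p = 0.279 by limma), and by 0.34 after quantile normalization, which also passed. With the slide side as a block it differed by 0.38 and did not pass. It was at 3.12, 3.35, and 3.22 in the WT and 3.64, 3.70, and 3.46 in the Selenbp1-KO kidneys. Cox4i1, another subunit of the oxidase, differed by 0.19 (standard error 0.099), and by 0.070 after quantile normalization. Atp5o, a subunit of the ATP synthase, differed by 0.15 (standard error 0.096) and turned to −0.022 after quantile normalization. Sod2, the mitochondrial superoxide dismutase, differed by −0.066 (standard error 0.14) and did not pass the test. The paper reports significantly lower Sod2 mRNA in the Selenbp1-KO kidneys.

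**Figure D5:**
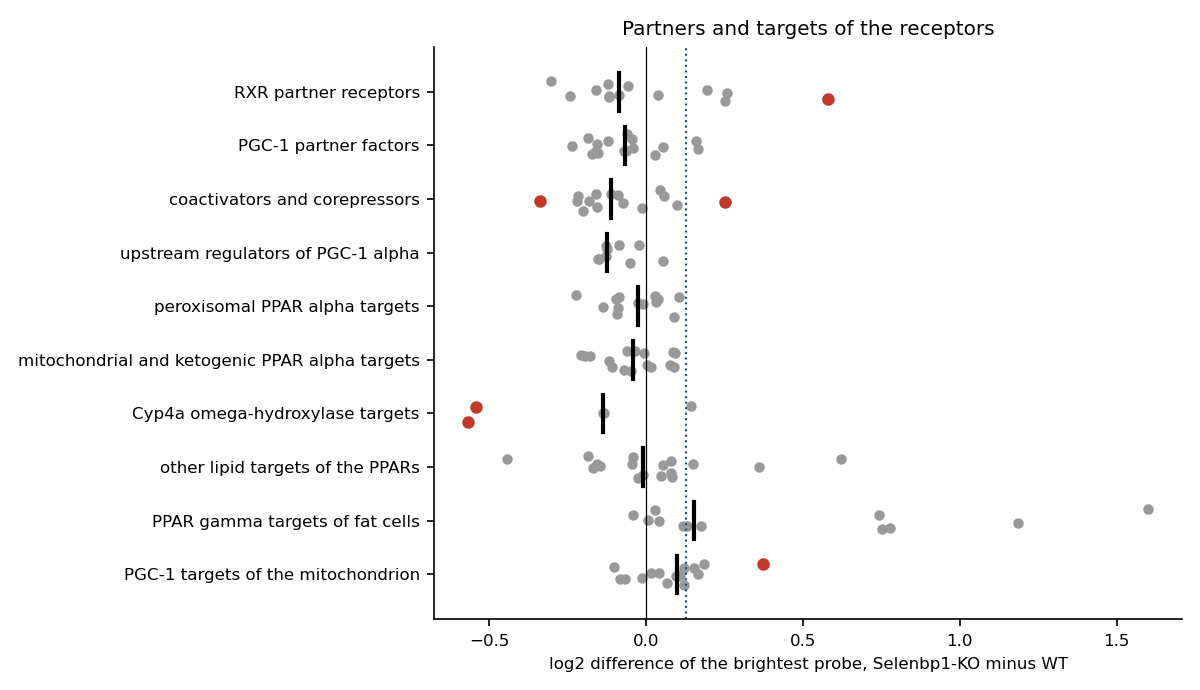
Log2 difference, Selenbp1-KO minus WT, of the brightest probe of each of 133 genes of the 10 pathway lists with signal well above background on all arrays of 1 or both genotypes. Red points have an unadjusted p under 0.05 by limma and gray points do not, and the black bars are the medians of the lists. The dotted line is the median of all genes tested, dim ones included, 0.13. The Cyp4a list holds 2 of the 3 red points left of 0, and the widest spread to the right is in the PPARγ targets of fat cells.

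Markers of the cells in the samples were read on the same scale. The 8 proximal tubule markers summed to between 935 and 1202 in the WT and between 1098 and 1134 in the Selenbp1-KO kidneys. The 8 markers of the distal nephron and collecting duct summed to between 287 and 304 and between 290.1 and 322. No marker of either list was called under this scaling. Spots flagged as outliers were kept in these sums, among them the only spot of Slc27a2, a fatty acid transporter of the proximal tubule, on WT replicate 3, the array with the lowest sum. After quantile normalization all 8 proximal tubule markers were lower, with a median of −0.11, and 1 of them, Slc27a2, was called lower. The 8 macrophage markers were all higher in the Selenbp1-KO group, and 6 of them passed the test, beside the 6.87% of all genes called higher. With the slide side as a block 3 passed, Cd68, Mrc1, and Lyz2, and C1qa, C1qb, and C1qc no longer did. Their summed level ranged from 15.4 to 19.0 in the WT and from 21.4 to 23.3 in the Selenbp1-KO kidneys. Lyz2, the lysozyme of myeloid cells, rose by 0.74 and C1qc, a complement subunit made by macrophages, by 0.60, each with an adjusted p of 0.279. Macrophages express Nr1h3, Pltp, and Pparg, and the part of these cells in the differences of the 3 genes was not tested.

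The genes most like 3 of the members over the 6 arrays were found by the root mean square difference from the member, after each gene was centered on its own mean, among 18370 genes well above background on all arrays. For Ppara they were Tmem2, Slc2a8, and Atoh7, at differences of 0.024, 0.041, and 0.041 log2 units, beside a spread of Ppara itself of 0.204. For Ppargc1a they were Dennd5b, Tmem33, and Syngr3, at 0.054, 0.056, and 0.056 beside 0.211. For Rxra, whose own spread was 0.074, they were a transcribed region without a gene symbol, Dync1i2, and Cast, at 0.015, 0.016, and 0.017. The nearest of 18370 genes over 6 arrays lie close through the search itself, so these distances do not show shared regulation.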

How the data were processed

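The authors scanned 6 one-color Agilent arrays and deposited the Feature Extraction output of each (version 10.7.1.1 in the file headers, 9.5.1.1 in the labels). The intensities used, as deposited, are linear, background-subtracted, and detrended. The deposited p-values of each spot against its background served the authors as a detection filter. Their value table, deposited by the authors, holds intensities whose distributions were equal between arrays, as after quantile normalization. The labels and the methods name different RNA kits, and the series text names another array design than the file headers.

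Signals were put on the log2 scale relative to the 75th percentile of their array. Flagged spots (44 to 73 per array) were left out, spots of a probe averaged, and the 56097 probes detected (p under 0.05) on 1 or more arrays tested with limma (version 3.58.1, R 4.3.3, two-sided). The methods' threshold of an unadjusted p under 0.05 was used, with Benjamini–Hochberg adjustment over all probes beside it. Of the probes, 32994 were named through RefSeq accessions. The probe with the highest mean stands for its gene. The text names all probes of the 8 members, list genes that the paper names, the 3 lowest p of each list, and a few further list genes (Pdk4, Angptl4, Cyp4a10, Cyp4a31) chosen after their values were seen. The members and lists were chosen with earlier results of these data known. P-values by limma set a difference against the spread between these mice, with each probe's variance drawn toward that of all probes tested. In fits without the slide side, any difference between its sides also enters them. The number of arrays limits the precision. The alternatives were normexp (offset 50), quantile and median scaling, the authors' values, other filters, trend and robust options (statmod 1.5.0), the slide side or the replicate number as a block, each array left out, and all probes averaged. The fit was tested on simulated data.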

Additional observations from a re-analysis of the deposited data

How the results depend on the processing

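The count of member probes called, 0 of 15, was 3 after normexp, quantile normalization, or with the authors' values, 2 when dim probes were filtered out (the filter being all arrays of 1 or both genotypes well above background), 1 with median scaling, 4 with trend and robust options, 2 with quantile normalization and the slide side as a block (an alternative chosen after seeing the data), and from 0 to 2 without 1 array. The count of all probes called, 4479, was 14616 with median scaling, 2841 with the filter, 7536 with trend and robust options, and from 2024 to 17585 without 1 array, the extremes coming without WT replicate 2 (lowest) and WT replicate 4 (highest). It was 2627 when WT replicate 3 was dropped and 2808 when Selenbp1-KO replicate 2 was. The 7 calls in the pathway lists became 25 after quantile normalization and 25 with the authors' values, 12 with the filter, 21 with trend and robust options, 18 with quantile normalization and the slide side, and from 2 to 13 without 1 array, with the same arrays left out at these extremes and 4 when Selenbp1-KO replicate 1 or 2 was dropped. With the replicate number as a block, 18430 probes were called, and 1 member probe, Pparg probe 2, which was not well above background. This probe was also among the calls after normexp and, when WT replicate 4 was dropped, had the lowest adjusted p of the members (adjusted p = 0.0490 by limma). Replicate numbers 2 and 3 are shared between the groups, and the deviations of same-numbered arrays correlated at 0.17 and 0.19 over probes. These are 2 pairs whose numbers the labels do not tie to a shared batch, so the pairing was not used.

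Ppara passed the threshold after normexp (−0.32), quantile normalization (−0.35), with the authors' values (−0.34), with the filter (−0.31), and with trend and robust options (−0.31), and ranged from −0.42 to −0.19 without 1 array. Rxra passed after quantile normalization (−0.23), with the authors' values (−0.20), and with quantile normalization and the slide side (−0.18). Rxrg passed after normexp (0.31) and ranged from 0.24 to 0.57 without 1 array. Ppargc1b passed with trend and robust options (−0.26) and ranged from −0.36 to −0.18 without 1 array, passing without WT replicate 4. Ppard ranged from −0.035 to 0.098 without 1 array, and Pparg from 0.049 to 0.77. Rxra probe 2 turned to 0.22 with the slide side as a block, 0.23 with quantile normalization added, and 0.027 without WT replicate 3, with a range from −0.22 to 0.027 without 1 array. Under the replicate block, Rxrb probes 2 and 3 turned to −0.058 and −0.033, and Rxrb probe 2 also turned to −0.026 without Selenbp1-KO replicate 1, in a range from −0.026 to 0.14 without 1 array. The ratio of Ppargc1a over Ppargc1b turned to −0.032 after normexp and −0.35 on side 2 alone, and ranged from −0.20 to 0.19 without 1 array, with −0.086 and −0.069 without WT replicates 2 and 3. The cause of these changes was not tested. Signal over background limits what Pparg probe 2 can show. Rxrg and Rxra probe 2, the next dimmest member probes, were well above background on all 6 arrays.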
